A study of Homo sapiens with 6 samples.

Results

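Fibronectin, the thrombospondins and other matricellular proteins were followed in MCF10A cells that overexpress the potassium channel subunit GIRK1. The 9 genes were chosen by symbol: FN1, TNC, SPARC, THBS1, THBS2, THBS3, SPP1, POSTN and CCBE1. All 9 were found among the 20812 amplicons of the assay, of which 10 are spike-in controls and the others stand for 1 gene each. MCF10A is an established, benign line of human mammary epithelial cells. The 6 libraries carry labels for 3 groups of 2: the unmodified line (wt), the line that stably overexpresses eGFP as its control (eGFP), and the line that stably overexpresses the KCNJ3 gene product GIRK1 (GIRK1). Per the study's methods, the GIRK1 coding sequence was placed in a plasmid that also carries eGFP, cells were selected with G418 after stable transfection, and fluorescent cells were sorted. The wt line shares neither plasmid, selection nor sorting with the other lines, and whether a line goes back to 1 clone is not stated. Whether the 2 replicates of a group were separate cultures is not stated, and p-values measure only the spread between these libraries.

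Matricellular proteins are secreted into the extracellular matrix, but rather than building its scaffold they tune how cells attach, spread and receive growth factors. Fibronectin is a fibre-forming glycoprotein that cells bind through integrins. Thrombospondin-1 activates latent TGF-β and binds CD47 and CD36, SPARC binds collagen and calcium, and tenascin-C, periostin and osteopontin are typical of remodelled or injured tissue. In the normal breast most of these proteins come from the stroma, while MCF10A cells grown on plastic show features of basal epithelium and secrete several of them.

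The total number of reads ran from 2506120 to 16040556 per library. Levels are given in RPM, the count of a gene scaled by the total of its library, and the limit that a count of 0 allows (3 reads) ran from 0.187 RPM in wt replicate 2 to 1.20 RPM in wt replicate 1. Intervals and limits cover counting error only. KCNJ3 was read at 217 and 355 RPM in the GIRK1 libraries and had 0 reads in both eGFP libraries and in wt replicate 2. The library labelled wt replicate 1 had 48 reads of KCNJ3 (19.2 RPM) and went against its label in its markers. The basal keratin KRT5 stood at 0.798 RPM, against 3862 RPM or more in each of the others. The summed level of 10 basal markers was 470 RPM, against 8576 to 15909 RPM. The summed level of 10 luminal markers was 16395 RPM, against 2011 to 2632 RPM. Of these 10, KRT7 went the other way, at 0 RPM against 1151 to 1797 RPM. This library is therefore shown apart, and the controls are the 3 libraries eGFP replicate 1, eGFP replicate 2 and wt replicate 2. Among these, eGFP replicate 1 stood apart: over the 9212 genes that averaged 50 reads or more, 1025 differed at least 2-fold between the eGFP replicates and 1316 between eGFP replicate 1 and wt replicate 2, against 140 between eGFP replicate 2 and wt replicate 2 and 178 between the GIRK1 replicates.

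Each gene is read by a single amplicon of 100 to 109 bases, so that a level is that of the transcripts which hold this stretch, and levels cannot be compared between genes. The deposited positions are on RefSeq transcripts without a version, and their GC count fitted the same transcript counted from its GENCODE start for 3310 of 8223 genes whose starts differ between the annotations (40.3%), and counted from the RefSeq start for 1571 (19.1%). For this reason no amplicon sequence is given. For SPARC, THBS1 and CCBE1 the window lay in coding sequence in every placement tried. The SPARC window was held by 3 of 5 coding transcripts counted from the GENCODE start. Counted from the RefSeq start it was held by 1 of 5, and this placement had the file's GC count (60 bases). The THBS1 window was held by 1 of 2 in either placement. The CCBE1 window was held by 4 of 5, with a GC count of 54 bases against 53 in the file. The FN1 window fell in exon 24 of 46 and was held by 10 of 13 coding transcripts when counted from the GENCODE start, but counted from the RefSeq start it crossed into exon 25 and was held by only 3 of them, and this second placement had the GC count of the file (53 bases). The TNC window was placed in the 5′ untranslated region, with the file's GC count (43 bases), and 2 of 9 coding transcripts hold it. All values below, the low ones of FN1 and TNC included, are values of these stretches.

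Of the 6 genes with enough reads for a test, SPARC, THBS1 and CCBE1 were lower in GIRK1 than in eGFP, and the other 3 tested genes (FN1, TNC, THBS3) did not pass the test. That is 3 of 6 genes, where 0.840% of all 11779 genes tested were called lower in this comparison (99 genes, with 89 called higher). The genes were chosen with earlier results of these data known, and the paper lists THBS1 and CCBE1 among downregulated transcripts. Shares and medians of the set, here and below, therefore describe it and are no independent test of it. THBS2, SPP1 and POSTN had too few reads to be tested. In RPM, both GIRK1 libraries stood below all 3 controls for FN1, TNC, SPARC, THBS1 and CCBE1, whereas 19.6% of 11389 genes did so. The median log2 fold change of the 6 tested genes was -1.99, and that of all genes tested was 0.016. In bulk RNA, fewer cells that express a gene and less of its RNA per cell cannot be told apart.

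**Figure D1:**
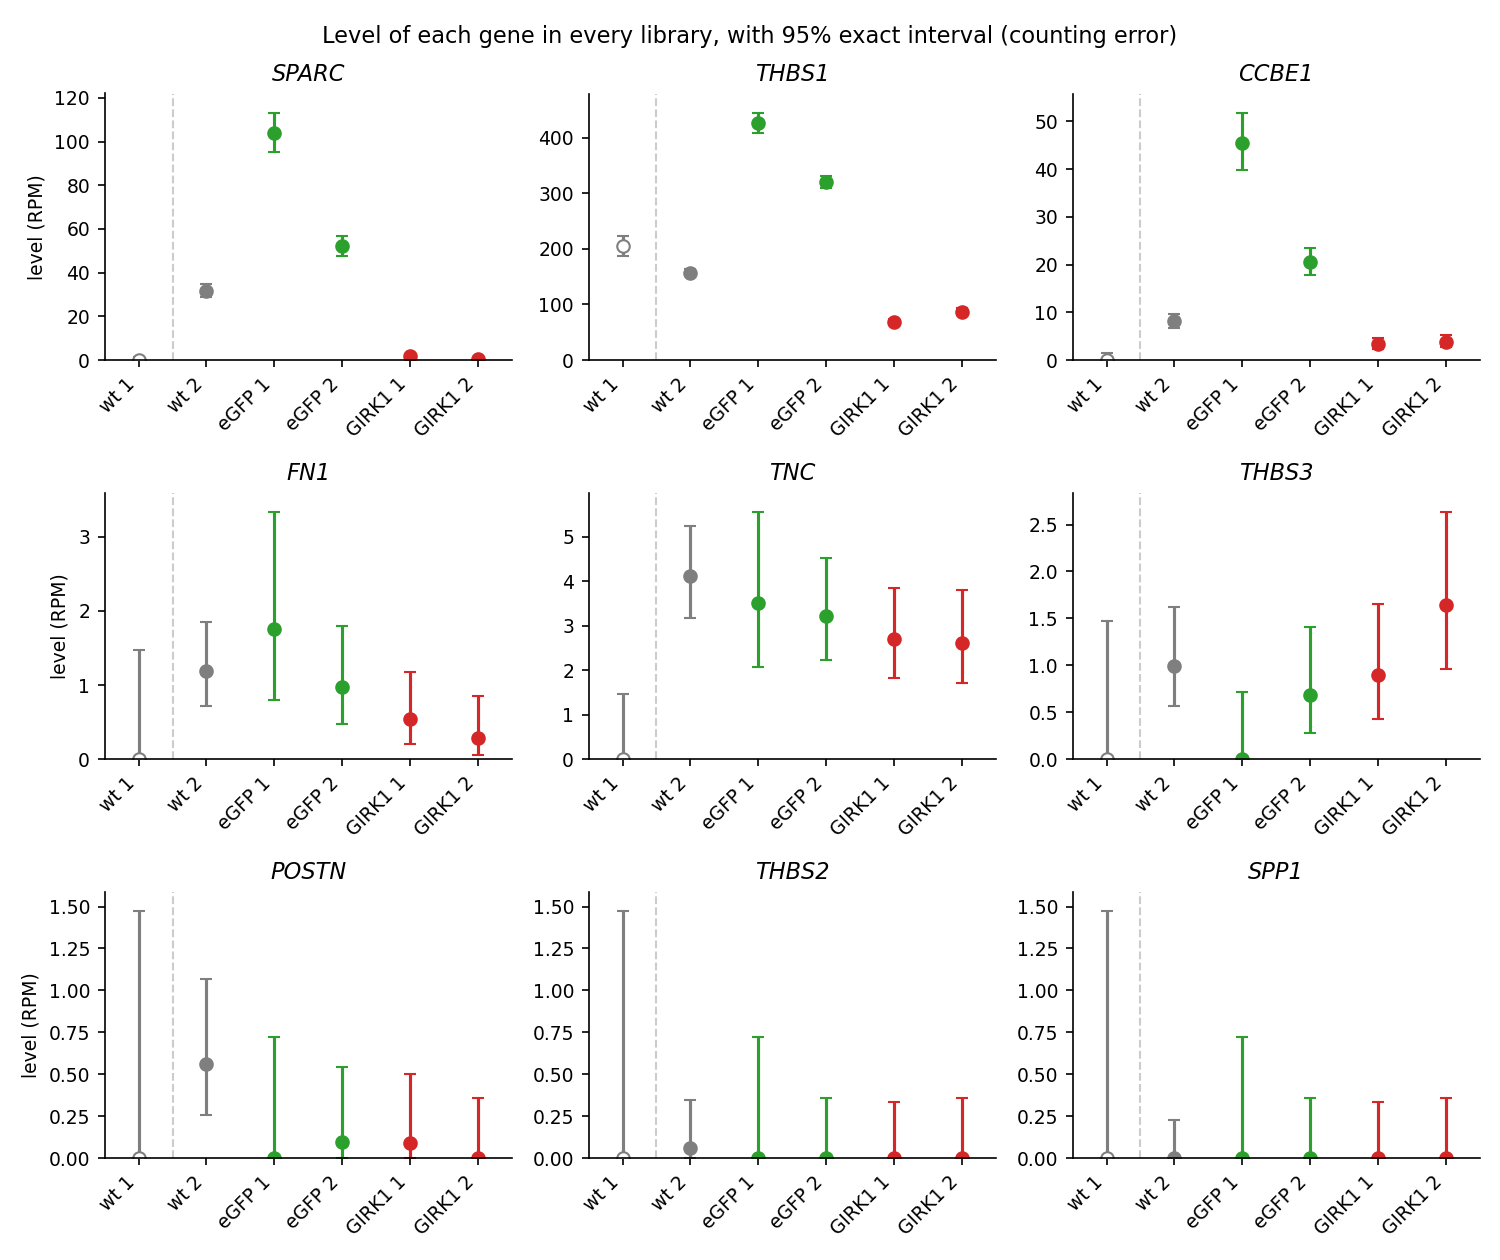
Level of each of the 9 genes in every library, in RPM on a linear axis of its own, with the 95% exact binomial interval of the count. Grey is wt, green eGFP and red GIRK1, and the open point left of the dashed line is wt replicate 1; SPARC, THBS1 and CCBE1 stand highest in eGFP and lowest, of the 5 libraries compared, in GIRK1.

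SPARC (secreted protein acidic and rich in cysteine, chromosome 5, 151661096 to 151687165, GRCh38) regulates collagen assembly and loosens the contacts between cells and matrix. Its counts were 509 reads in wt replicate 2 (31.7 RPM), 532 and 534 reads in eGFP (104 and 52.2 RPM), and 21 and 5 reads in GIRK1 (1.89 and 0.483 RPM). The GIRK1 libraries were far below every control and their exact intervals ended at 2.89 and 1.13 RPM, while the lowest control stood at 31.7 RPM. The mean was 78.0 ± 36.5 RPM (SD, n = 2) in eGFP, 62.6 ± 37.1 RPM (n = 3) over the controls and 1.19 ± 0.996 RPM (n = 2) in GIRK1. Pooled over libraries, the share of reads in GIRK1 was 0.0242 of that in the controls (95% exact interval 0.0157 to 0.0355).

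The fitted log2 fold change of SPARC against eGFP was -6.06 (SE 0.63), which is 66.8-fold lower, with an edgeR adjusted p of 0.00842. Against the 3 controls it was -5.73 (SE 0.78, edgeR adjusted p = 0.0217), and SPARC was the only 1 of the 6 tested genes called there, where 0.413% of all genes were called lower. Against wt replicate 2 alone it was -4.69 (SE 0.66, edgeR adjusted p = 0.0574), which missed the threshold. SPARC passed there in 9 of 11 alternatives, with a log2 fold change from -5.96 to -4.06. It did not pass with DESeq2 size factors (-4.69) or with all 6 libraries, where wt is both wt libraries (-3.77, edgeR adjusted p = 0.787). Among the 9 were the replicate block and every omission of 1 eGFP or GIRK1 library. Without an eGFP library only the GIRK1 pair gave the spread, and without a GIRK1 library only the eGFP pair did. These omissions are therefore no check that the call is robust. No tested gene of the 9 was called lower in that comparison as fitted, in which 0.0340% of all genes were (4 genes, with 869 at an unadjusted p below 0.05 in either direction). The call against the 3 controls was lost without eGFP replicate 2, GIRK1 replicate 1 or GIRK1 replicate 2 (edgeR adjusted p = 0.0963, 0.140 and 0.268), although the log2 fold change then stood at -5.87, -7.00 and -5.09. Across all alternatives the adjusted p of SPARC against the 3 controls ran from 1.43e-16, with DESeq2, to 0.711, by edgeR with all 6 libraries. The GIRK1 replicates differed from each other more for SPARC than for THBS1 or CCBE1, with a coefficient of variation of 0.838 against 0.167 and 0.0863.

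The thrombospondins split by depth, since only THBS1 was read in large numbers. THBS1 encodes thrombospondin-1, an inhibitor of angiogenesis (chromosome 15, 39581079 to 39599466, GRCh38). Its counts were 2526 reads in wt replicate 2 (157 RPM), 2183 and 3273 reads in eGFP (426 and 320 RPM), and 762 and 900 reads in GIRK1 (68.6 and 87.0 RPM). No interval of a GIRK1 library met that of a control, and the order of the levels was GIRK1, wt replicate 2 and eGFP. The mean over the controls was 301 ± 135 RPM (SD, n = 3), and their highest and lowest value were 2.70-fold apart, while the difference from wt replicate 2 to the GIRK1 mean was 2.02-fold. Against eGFP the fitted log2 fold change was -2.31 (SE 0.28, edgeR adjusted p = 0.0150). Against the 3 controls it was -1.99 (SE 0.44, edgeR adjusted p = 0.0908) and against wt replicate 2 -0.99 (SE 0.31, edgeR adjusted p = 0.517), and neither passed the test. The call against the 3 controls was reached without eGFP replicate 1 (-1.60, edgeR adjusted p = 0.0127), but not without eGFP replicate 2 (edgeR adjusted p = 0.266). Without wt replicate 2 only eGFP remains as the control, so that fit repeats the comparison with eGFP (-2.31, edgeR adjusted p = 0.0185). With all 3 controls kept the call was reached without a filter on low counts (edgeR adjusted p = 0.0235), with the replicate block (edgeR adjusted p = 0.0418) and with DESeq2 (adjusted p = 0.000251, the lowest of the alternatives, the highest being 0.617). In 7 of 12 alternatives THBS1 stayed uncalled against the 3 controls.

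THBS3, which forms pentamers unlike THBS1 and THBS2, had 16 reads in wt replicate 2 (0.997 RPM), 0 and 7 reads in eGFP (0 and 0.684 RPM) and 10 and 17 reads in GIRK1 (0.900 and 1.64 RPM). The GIRK1 libraries stood above both eGFP libraries but overlapped wt replicate 2. The log2 fold change against eGFP was +1.55 (SE 0.999, edgeR adjusted p = 0.429), and the ratio of the pooled shares of GIRK1 and controls had an interval from 0.949 to 3.14. THBS2, which is found mainly in connective tissue, had 1 read in wt replicate 2 and 0 reads in the other 5 libraries. A difference in THBS2 was thus not detectable at this depth.

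Since THBS1 was both called and read at depth, the 250 bases before its start are shown as RefSeq gives them (chr15:39580829-39581078, plus strand, GRCh38.p14), with matches to 4 short motifs in capitals. The motifs, searched on both strands, were CAGAC (a SMAD element), TGANTCA (AP-1), GGAATG (TEAD) and GGGCGG (SP1), which do not overlap here.
THBS1: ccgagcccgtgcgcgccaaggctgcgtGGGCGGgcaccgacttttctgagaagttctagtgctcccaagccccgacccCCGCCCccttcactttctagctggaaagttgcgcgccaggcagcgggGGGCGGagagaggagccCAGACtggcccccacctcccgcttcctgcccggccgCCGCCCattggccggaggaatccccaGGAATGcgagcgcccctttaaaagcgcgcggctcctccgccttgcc
This window held 4 SP1 matches, 1 SMAD match, 1 TEAD match and no AP-1 match. Over 35116 promoter windows of this length, 42.6% held the SP1 letters, 38% the SMAD, 11.9% the TEAD and 6.57% the AP-1 letters. The SPARC window held 1 TEAD match and none of the others, and the CCBE1 window 1 SMAD match and none of the others, so that no motif of the 4 was in all 3 windows. A match of letters is a description and no binding site was measured.

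CCBE1 (collagen and calcium binding EGF domains 1, chromosome 18, 59430939 to 59697662, GRCh38) brings the protease ADAMTS3 to VEGF-C and is needed for lymphatic growth. Its counts were 130 reads in wt replicate 2 (8.10 RPM), 233 and 210 reads in eGFP (45.4 and 20.5 RPM), and 38 and 40 reads in GIRK1 (3.42 and 3.87 RPM). The GIRK1 replicates lay close together, below all controls, but the controls themselves spanned a 5.61-fold range. The mean was 33.0 ± 17.6 RPM (SD, n = 2) in eGFP and 3.64 ± 0.315 RPM (n = 2) in GIRK1. The log2 fold change against eGFP was -3.22 (SE 0.47), or 9.33-fold lower, with an edgeR adjusted p of 0.0282. Against wt replicate 2 it was -1.13 (SE 0.53, edgeR adjusted p = 0.716) and against the 3 controls -2.78 (SE 0.75, edgeR adjusted p = 0.130). The last passed without eGFP replicate 1 (-1.94, edgeR adjusted p = 0.0261), but not without eGFP replicate 2 (-2.92, edgeR adjusted p = 0.293). Without wt replicate 2 the fit repeats the comparison with eGFP (-3.22, edgeR adjusted p = 0.0347). With all 3 controls kept CCBE1 passed without a filter (edgeR adjusted p = 0.0443), with the replicate block (edgeR adjusted p = 0.0471) and with DESeq2 (adjusted p = 0.000955, the lowest of the alternatives, the highest being 0.804). In 7 of 12 alternatives CCBE1 stayed uncalled against the 3 controls.

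The size of these differences thus depended on the control. eGFP stood above wt replicate 2 by a log2 fold change of 2.09 for CCBE1 (SE 0.56), 1.37 for SPARC (SE 0.61) and 1.31 for THBS1 (SE 0.34). None of them passed the adjusted test (edgeR adjusted p = 0.953 for each), and 0.00% of all genes were called in that comparison (0 of 11779 by edgeR, with 418 at an unadjusted p below 0.05, and 5 by DESeq2). The unadjusted p was 0.00738 for CCBE1, 0.00656 for THBS1 and 0.0588 for SPARC. With eGFP represented by replicate 1 alone, its log2 fold changes over wt replicate 2 were 2.606 for CCBE1, 1.829 for SPARC and 1.555 for THBS1. With eGFP represented by replicate 2 alone, they were 1.339, 0.7172 and 1.022. The log2 fold changes of GIRK1 against eGFP replicate 2 alone were -5.41 for SPARC, -2.02 for THBS1 and -2.47 for CCBE1. In these fits only the GIRK1 pair gave the spread, so whether a gene was called in them is no check of the results.

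**Figure D2:**
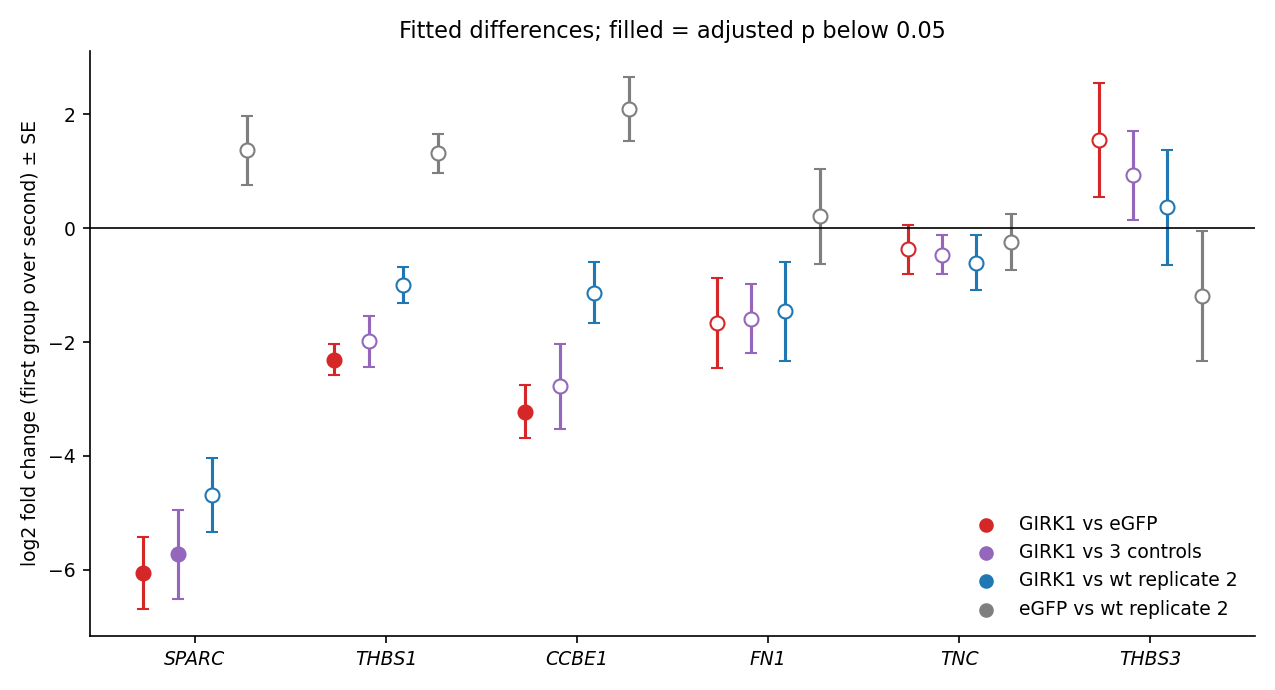
Fitted log2 fold change with its SE for the 6 tested genes in 4 comparisons (3 control libraries: eGFP 1 and 2 and wt 2). Filled points have an edgeR adjusted p below 0.05: SPARC at -6.06 and -5.73, THBS1 at -2.31 and CCBE1 at -3.22; the grey points show eGFP above wt replicate 2 for the same 3 genes, none called.

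Fibronectin was read sparsely. FN1 (chromosome 2, 215360440 to 215436172, GRCh38) had 19 reads in wt replicate 2 (1.18 RPM), 9 and 10 reads in eGFP (1.76 and 0.977 RPM), and 6 and 3 reads in GIRK1 (0.540 and 0.290 RPM). The GIRK1 values were below all controls, but the counting intervals overlapped. The log2 fold change against eGFP was -1.67 (SE 0.80, edgeR adjusted p = 0.311), and it was -1.59 against the 3 controls (SE 0.61, edgeR adjusted p = 0.234). Pooled over libraries the ratio of GIRK1 to controls was 0.347 (95% exact interval 0.147 to 0.729), which covers counting error but not the spread between libraries.

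TNC encodes tenascin-C, a large hexameric protein that counters adhesion to fibronectin. It had 66 reads in wt replicate 2 (4.12 RPM), 18 and 33 reads in eGFP (3.51 and 3.23 RPM), and 30 and 27 reads in GIRK1 (2.70 and 2.61 RPM). These values lay close together, with the GIRK1 libraries just below the lowest control. The log2 fold change against eGFP was -0.37 (SE 0.43, edgeR adjusted p = 0.665), and -0.61 against wt replicate 2 (SE 0.48, edgeR adjusted p = 0.856).

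Periostin and osteopontin were at the limit of detection. POSTN, which encodes periostin, a ligand of integrins made mainly by fibroblasts, had 9 reads in wt replicate 2 (0.561 RPM), 0 and 1 reads in eGFP and 1 and 0 reads in GIRK1. It was thus above its limit of detection in wt replicate 2 alone, which is the deepest library. The 0 reads in eGFP replicate 1 allow up to 0.585 RPM, so a level like that of wt replicate 2 could have been missed there. SPP1, which encodes osteopontin, had 0 reads in all 6 libraries, which allows at most 0.187 RPM in the deepest of them.

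In the library labelled wt replicate 1, 8 of the 9 genes had 0 reads, including SPARC and CCBE1, which allows up to 1.20 RPM. THBS1 was the exception, with 513 reads (205 RPM), between wt replicate 2 and eGFP. When that library was kept as a control replicate of wt, none of the 9 genes was called in any comparison. The loss was not particular to them: of all 11546 genes tested, 0 were then called in GIRK1 vs eGFP and 7 in GIRK1 against the pooled controls. The log2 fold changes against eGFP were then -6.07 for SPARC, -2.30 for THBS1 and -3.22 for CCBE1, with edgeR adjusted p of 0.934, 0.623 and 0.934.

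By the definition the study used for its gene lists (GIRK1 and eGFP at least 2-fold apart, with replicates whose coefficient of variation stayed under 0.7), FN1, THBS1 and CCBE1 were lower, 3 of 9 genes, where 3.28% of all 20812 were. SPARC, with the largest fold change of the 6 tested genes, was not, because its GIRK1 replicates differed too much (21 and 5 reads). TNC and POSTN did not reach 2-fold, and THBS3 failed by the variation between its eGFP replicates (0 and 7 reads).

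The genes around these 9 were counted from 3 lists: 35 other matricellular and matrix glycoproteins, 29 genes that process, cross-link or bind them, and 27 of their receptors, among them integrins, syndecans and CD47. In GIRK1 against eGFP, 48.7% of all genes tested had a log2 fold change below 0. Of the other matricellular genes 13 were tested, 10 were below 0 in this comparison (median -0.81), and 1 was called lower, where 0.840% of all genes tested were. That gene was SMOC1, which encodes a secreted calcium-binding protein of the SPARC family. SMOC1 stood at 55.2 RPM in wt replicate 2, 90.5 and 101 RPM in eGFP and 29.8 and 28.5 RPM in GIRK1, with a log2 fold change of -1.75 (SE 0.20, edgeR adjusted p = 0.0132). Of the partners 20 were tested, 16 were below 0 (median -0.83), and 1 was called lower. This was LOXL2, a lysyl oxidase that cross-links collagen, which stood at 22.4 RPM in wt replicate 2, 191 and 57.5 RPM in eGFP and 4.59 and 1.26 RPM in GIRK1. Its log2 fold change was -5.46 (SE 0.80, edgeR adjusted p = 0.0295).

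Against the 3 controls, where 0.413% of all genes were called lower, 1 partner was, LOX, another lysyl oxidase, with 29.5 RPM in wt replicate 2, 37.6 and 27.4 RPM in eGFP and 11.9 and 8.60 RPM in GIRK1 (log2 fold change -1.64, SE 0.27, edgeR adjusted p = 0.0454). SMOC1 and LOXL2 did not pass there (edgeR adjusted p = 0.0667 and 0.0922). Of the receptors 21 were tested against eGFP, 17 were below 0 (median -0.55), and none was called in any of the comparisons. Against wt replicate 2, where no gene of the 3 lists was called, the medians were closer to 0, at -0.45, -0.12 and -0.26. In eGFP against wt replicate 2 the medians of the same lists were above 0, at 0.51, 0.49 and 0.26. Both GIRK1 libraries stood below all 3 controls for 7 of the 13 other matricellular genes, 9 of the 20 partners and 7 of the 20 receptors tested against the 3 controls, beside 19.6% of all genes.

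**Figure D3:**
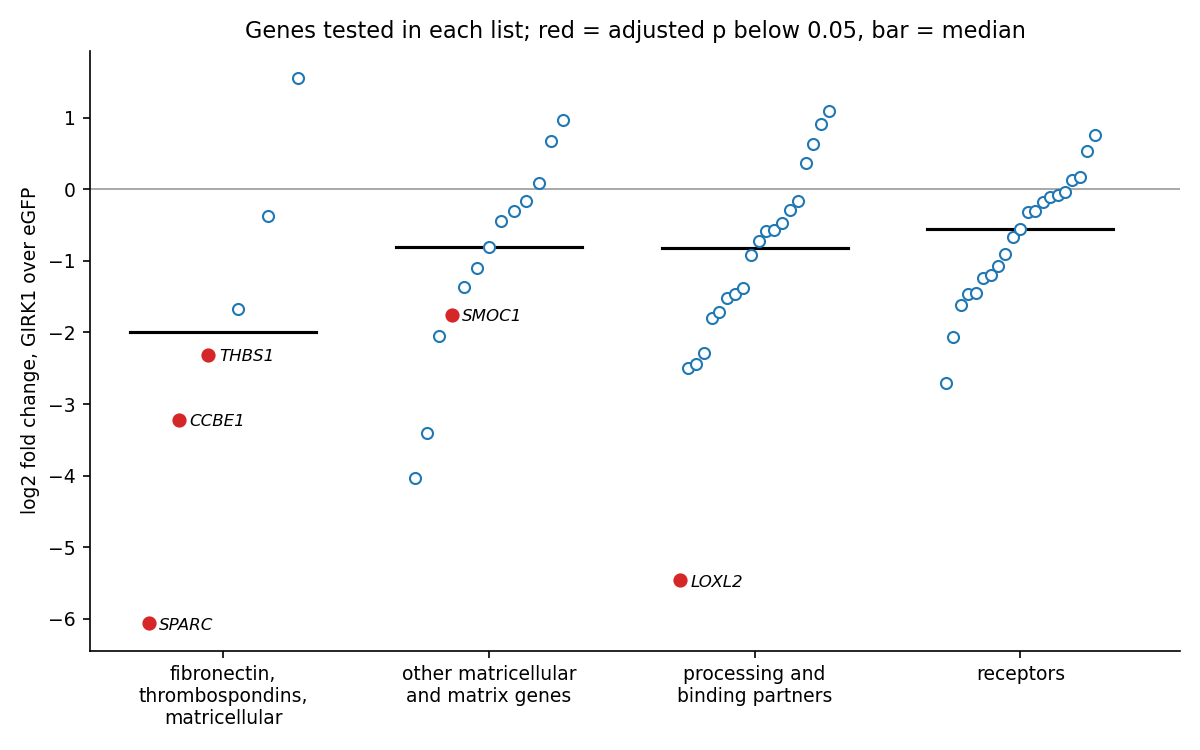
Log2 fold change of GIRK1 over eGFP for each tested gene of the 4 lists, sorted within its list, with the median as a bar. Red points have an edgeR adjusted p below 0.05: SPARC, CCBE1 and THBS1, SMOC1 at -1.75 and LOXL2 at -5.46. No receptor was called, and most points lie below 0, where 48.7% of all genes tested do.

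Markers of other cells give the setting of these values. Of 10 fibroblast markers COL1A2, PDGFRA and THY1 had 0 reads in all 6 libraries, and the summed level of the list was 63.6 RPM in wt replicate 2, 94.2 and 68.3 RPM in eGFP and 89.9 and 99.9 RPM in GIRK1, so that the ranges of the controls and of GIRK1 overlapped for this list. Decorin (DCN), a proteoglycan counted in that list, was the only 1 of its 4 tested genes called in GIRK1 against eGFP, and was higher in GIRK1, at 27.0 and 25.2 RPM against 0.780 and 3.71 RPM in eGFP and 10.2 RPM in wt replicate 2 (log2 fold change against eGFP 3.37, SE 0.51, edgeR adjusted p = 0.0328). DCN did not pass against the 3 controls (2.29, edgeR adjusted p = 0.145) or against wt replicate 2 (1.37, edgeR adjusted p = 0.661). The endothelial markers CDH5 and VWF and the blood markers PTPRC, HBB and CD3E had 0 reads throughout. The other listed blood markers were read in all 5 libraries compared, CD14 at 7.11 to 21.7 RPM and CD68 at 14.9 to 23.8 RPM. The other listed endothelial markers, PECAM1, KDR and TEK, were read in them at no more than 2.25 RPM. The summed level of 10 basal markers, of which TP63 had 0 reads in every library, ran from 8576 to 15909 RPM over the 5 libraries, highest in eGFP replicate 1, where SPARC, THBS1 and CCBE1 were also highest. Whether this has a part in the results was not tested.

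For SPARC, THBS1 and CCBE1, which averaged 10 RPM or more, the pattern over the 5 libraries was compared with that of 8018 genes at this level, by the distance between centred log2 levels. The genes nearest to SPARC were IGFBP7 (distance 1.21) and SLC12A8 (1.37). IGFBP7, a secreted binding protein of insulin-like growth factors, stood at 28.8 RPM in wt replicate 2, 59.9 and 35.6 RPM in eGFP and 0.450 and 0.097 RPM in GIRK1. Nearest to THBS1 were the histone gene HIST1H3G (0.216) and the lipoxygenase gene ALOX15B (0.388), and nearest to CCBE1 were LINC00460 (0.444) and the histone gene HIST1H2AI (0.569). These distances describe 5 libraries and rest on the same control libraries.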

How the data were processed

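RNA of 6 libraries of MCF10A cells was reverse transcribed and amplified with the Ion AmpliSeq Transcriptome kit and sequenced on an Ion S5 XL. Per the study's methods, the authors used the Ion Torrent suite to map reads to a human amplicon reference. The deposited values of an amplicon are its whole-number count of reads and its RPM (that count scaled to the library total). Rows were joined by amplicon. Genes with close paralogs are less certain, since the handling of shared reads is not given in the sources used here.

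The test was that of edgeR 4.0.16 in R 4.3.3, with limma 3.58.1 loaded: TMM, filterByExpr, glmQLFit and glmQLFTest over 5 libraries, with Benjamini-Hochberg adjustment over all genes tested and a threshold of 0.05. GIRK1 vs eGFP and both comparisons with wt replicate 2 came from 1 fit of 3 groups, in which wt replicate 2, a group of 1, was assumed to vary like the others. GIRK1 vs 3 controls came from a fit of 2 groups. SE was derived from the F value. The procedure was tested on simulated counts. DESeq2 1.42.0 was an alternative, beside other scalings, filters, library sets and a replicate block.

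The genes and lists were chosen with earlier results of these data known. Named were all 9 genes, up to 8 genes per list past the threshold in GIRK1 vs eGFP or vs 3 controls, and the 2 genes of nearest pattern per gene with at least 10 RPM. Marker genes are named to describe the libraries, DCN and KRT5 after their values were seen. Gene positions are from GENCODE v29, promoter sequence from RefSeq.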

Additional observations from a re-analysis of the deposited data

Results flagged for a closer look

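The library labelled wt replicate 1, which entered the comparisons only in the alternative with all 6 libraries, held signals above those of every control library. KCNJ3 stood at 19.2 RPM (48 reads) there, against 0 reads in the 3 controls. The summed level of the 10 luminal markers was 16395 RPM, and that of the 5 general epithelial markers was 1489 RPM, against 225 to 282 RPM in the controls. KRT7, 1 of the luminal markers, went the other way and stood at 0 RPM there. Of the 9 genes only THBS1 was read in this library. The source of these signals was not tested.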

How the results depend on the processing

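Of the 6 tested genes, 3 were called in GIRK1 vs eGFP, 0 in GIRK1 vs wt replicate 2, 1 in GIRK1 vs 3 controls and 0 in eGFP vs wt replicate 2. With all 6 libraries the first and the third count were 0 and 0. In GIRK1 vs wt replicate 2 the count was 1 with total reads only, without a filter and with DESeq2, and 2 with only the groups compared. SPARC passed there in 9 of its 11 alternatives, among them every omission of 1 eGFP or GIRK1 library, and THBS1 passed without eGFP replicate 1 or 2. In those omissions 1 pair of replicates gave all of the spread, so they are no check of the call. In GIRK1 vs 3 controls the count was 3 without a filter and with DESeq2, and 0 with at least 10 reads in every library. Only 3 of the genes were tested with that last filter, and SPARC was not. Leaving out each replicate gave 3 to 3, 1 to 2, 0 to 3 and 0 to 3 calls in the 4 comparisons, with the lone library assumed to vary like the other groups. Leaving out wt replicate 2 could not be run for the comparisons with it, and turned GIRK1 vs 3 controls into GIRK1 vs eGFP. In the other 3 comparisons, leaving out an eGFP or GIRK1 library left 1 pair of replicates to give all of the spread. The study's rule gave 3 calls.

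The direction turned only for genes that were not called. These were THBS3 in GIRK1 vs wt replicate 2 (from -0.14 to 0.75 without 1 library, below 0 without GIRK1 replicate 2), FN1 in eGFP vs wt replicate 2 (from -0.28 to 0.68, below 0 without eGFP replicate 1), and TNC with all 6 libraries. With all 6 libraries the comparisons with wt replicate 2 become comparisons with both wt libraries. TNC, with 0 reads in wt replicate 1, was then at +0.17 in GIRK1 vs wt and +0.54 in eGFP vs wt.

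When the replicate number entered as a block, the counts were 3, 1, 3 and 0, and FN1 in eGFP vs wt replicate 2 was at -0.25. The replicate differences of eGFP and GIRK1 correlated at 0.197 over 9212 genes, and with 2 pairs the numbers are not shown to pair the libraries.

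Over all genes, the 188 calls in GIRK1 vs eGFP became 865 without a filter, 107 with at least 10 reads in every library, 670 with DESeq2, 549 with the block, 0 with all 6 libraries (606 at an unadjusted p below 0.05), and 158 to 2997 without 1 library. In GIRK1 vs 3 controls, the 91 calls higher and 47 lower became 374, 110, 798, 558 and 7, and 19 to 984, and the 27 in GIRK1 vs wt replicate 2 became 133, 16, 126, 77 and 0, and 34 to 576. Depth limits FN1, THBS2, THBS3, SPP1 and POSTN, each under 20 reads per library.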
